A study of Mus musculus with 23 samples.

Results

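Ccn1, Ccn2, Hbegf, Adamts1 and Tnfrsf12a are genes that muscle and other tissues are known to switch on when they are stretched or loaded, and here these 5 were followed across 2 mouse experiments of muscle unloading. Stretch itself was not measured. They were taken by gene symbol from the platform annotation, which gives 8 probe sets for these 5 genes, out of 20380 probe sets with a single symbol for 12393 genes. Ccn1, Hbegf and Tnfrsf12a have 2 probe sets each, and Ccn2 and Adamts1 have 1 each. All 8 lay above the level filter, a log2 signal of 5.83, on all 23 arrays, so none was tested only because it was high in one group. The symbols were chosen by name with earlier log2 differences of these same comparisons in view, and which comparison decided the choice is not recorded. The differences and adjusted p-values below are therefore a description of these genes, not an independent test of them.

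All samples were leg muscle of C57BL/6J females, given as 77 days old, and each was read on 1 Affymetrix array. In the flight experiment, gastrocnemius came from mice flown for 11 days and 19 hours (spaceflight, n = 4) and from mice kept on the ground for that time in an animal enclosure module (ground AEM, n = 4), which mimicked the temperature, humidity and CO2 of the shuttle. In the calf experiment, muscle came from mice suspended by the tail for 12 days and then let down for 3.5 hours (reloaded, n = 5), from mice suspended for 12 days at an angle of about 30 degrees (suspension, n = 5), and from untreated mice (control, n = 5). The labels name no genetic change in any group. How long after landing the flown mice were dissected is not given in the sources used here.

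CCN1 and CCN2 are secreted matricellular proteins that bind integrins and heparan sulfate and are textbook targets of the mechanosensitive coactivators YAP and TAZ, which act through TEAD factors, and of SRF with its coactivators MRTF. HB-EGF is a membrane-anchored growth factor that is shed and then activates the EGF receptor, ADAMTS1 is a secreted protease that cleaves proteoglycans such as versican, and Tnfrsf12a encodes Fn14, the receptor of the cytokine TWEAK. In muscle, Fn14 is known for its part in atrophy and for its rise after injury and exercise.

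Values are log2 signals as deposited, so a difference of 1 is a 2-fold change. The interquartile range of an array was 2.75 to 2.91 in flight and 2.20 to 2.46 in calf samples, with medians of 6.15 to 6.23 and 6.28 to 6.39, so levels were compared only within an experiment. Suspension replicate 8 stood apart from its group, with a median correlation of 0.985 to the other 4 arrays, and replicate 9 reached 0.989, where every other array lay between 0.991 and 0.995. The groups follow the sample titles, which the source names and design text match. The free-text description fields of the flown and the ground samples are swapped, and every flight difference would change sign if those fields were right. The labels do not tie replicates to separate animals, so a p-value covers only the spread among the samples, which may be technical.

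Reloading raised 4 of the 5 genes over suspension: Tnfrsf12a, Adamts1, Ccn1 and Hbegf, by 0.83 to 1.42 on the log2 scale. In limma, 0.58% of the 9133 genes tested were called in this comparison, 0.547% of them higher, at an adjusted p under 0.05 over all of them. In the probe set of highest mean of each gene, the reloaded and suspended samples did not overlap for these 4 genes, as for 0.832% of all genes in that direction. In the second sets of Ccn1 and Hbegf they did overlap. Against control, 2 of the 5 were called, Hbegf and Ccn1, both higher in reloaded muscle, where 0.318% of all genes were called and 0.263% called higher. In suspension against control 1 of the 5 was called, Tnfrsf12a, which fell, where 0.372% of all genes were called and 0.241% called lower. Ccn2 and Adamts1 were not called there, at the 33rd and 60th lowest differences of 9133.

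Spaceflight split the set. Ccn1 and Hbegf rose, Adamts1 and Ccn2 fell, and Tnfrsf12a was not called, so that 4 of 5 were called, where 5.64% of all genes were (3.18% higher and 2.46% lower). The flown and ground samples did not overlap for 3 of the 5, Ccn1, Ccn2 and Adamts1, as for 12.4% of all genes. The plots of signal by array and of the differences show these patterns gene by gene.

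**Figure D1:**
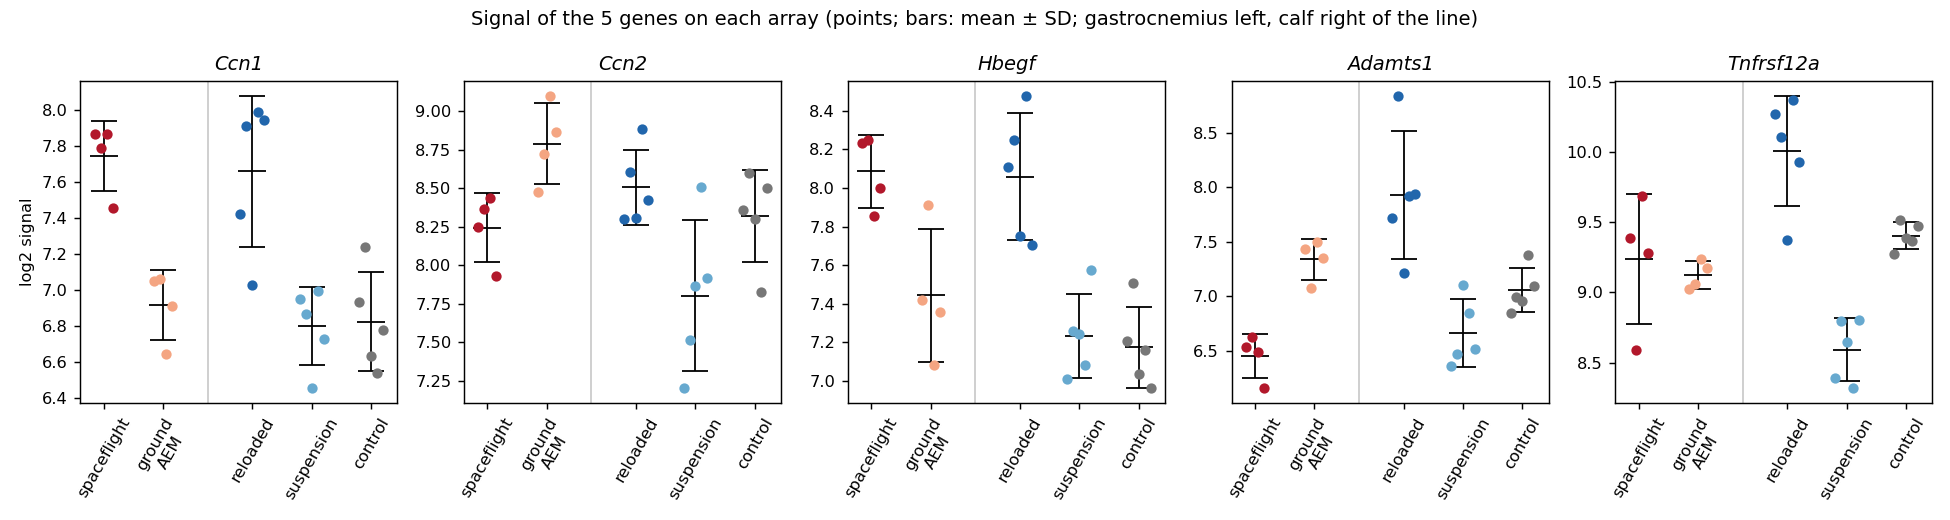
Log2 signal of the 5 genes (probe set of highest mean) on each of the 23 arrays, with points for arrays and bars for the group mean ± SD; gastrocnemius groups stand left and calf groups right of the grey line, and each panel has its own scale. Adamts1 and Ccn2 are lower, and Ccn1 is higher, in all 4 spaceflight arrays than in all 4 ground AEM arrays.

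**Figure D2:**
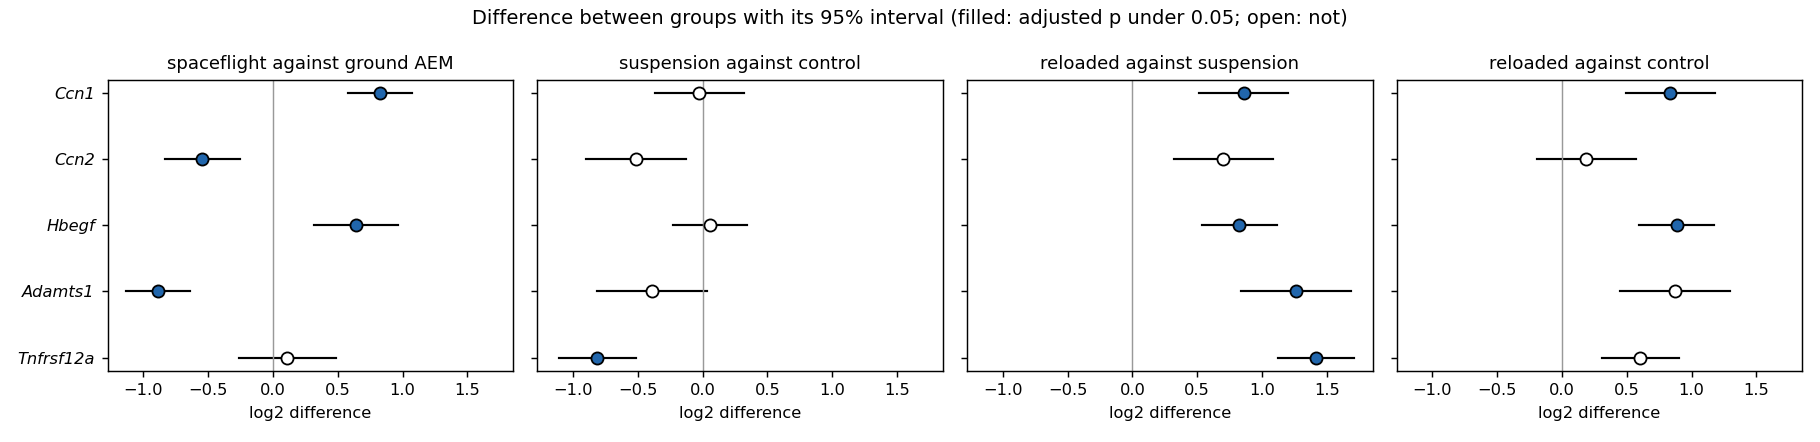
Log2 difference between groups for each gene in the 4 comparisons, with its 95% interval; filled points have a limma adjusted p under 0.05 over 9133 genes. Reloaded minus suspension is positive for all 5 genes, with Ccn2 the 1 unfilled point, whereas spaceflight minus ground AEM runs from -0.89 for Adamts1 to 0.83 for Ccn1.

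Ccn1, the first of the secreted ligands, had log2 signals of 7.86, 7.79, 7.86 and 7.45 in spaceflight replicates 8, 9, 10 and 11, against 7.05, 7.06, 6.64 and 6.91 in ground AEM replicates 1 to 4. Every flown sample lay above every ground sample. The means were 7.74 ± 0.20 in spaceflight and 6.91 ± 0.19 in ground AEM (SD, n = 4 each), a difference of 0.83 ± 0.11 (SE, limma adjusted p = 0.000991) and the 57th highest of 9133. In the calf experiment Ccn1 read 7.42, 7.91, 7.03, 7.98 and 7.94 in reloaded replicates 14, 15, 16, 18 and 33, and 6.95, 6.86, 6.45, 6.99 and 6.73 in suspension replicates 8, 9, 11, 25 and 30. The lowest reloaded sample, replicate 16, stood just above the highest suspended one. The reloaded mean of 7.66 ± 0.42 exceeded the suspension mean of 6.80 ± 0.22 by 0.86 ± 0.16 (SE, adjusted p = 0.0092).

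Control samples held Ccn1 at 6.93, 7.24, 6.63, 6.54 and 6.77 in replicates 1, 2, 19, 21 and 22. Replicate 2 lay above every suspended sample, and the other control samples lay among the suspended ones. The suspension minus control difference was -0.03, with a 95% interval of -0.37 to 0.32. Reloaded minus control was 0.83 ± 0.16 (SE, adjusted p = 0.0226), with the groups overlapping because control replicate 2 exceeded reloaded replicate 16. That call is a narrow one: it ended when any 1 of 6 arrays was left out (reloaded replicates 15, 18 and 33 and control replicates 19, 21 and 22; adjusted p up to 0.0944) and under eBayes with trend and robust estimation (adjusted p = 0.0536). The order of the calf means was reloaded first, then control and suspension, which did not differ beyond their spread.

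Ccn2, the paralogue of Ccn1 also known as connective tissue growth factor, went the other way in flight. It read 8.25, 8.36, 8.44 and 7.93 in spaceflight replicates 8, 9, 10 and 11, against 8.48, 8.72, 9.10 and 8.86 in ground AEM replicates 1 to 4. The groups did not overlap, but the highest flown sample came within 0.1 of the lowest ground sample. The difference was -0.55 ± 0.13 (SE, adjusted p = 0.0327), from means of 8.24 ± 0.22 in spaceflight and 8.79 ± 0.26 in ground AEM (SD, n = 4 each). Leaving out any 1 of 6 of the 8 arrays (all but spaceflight replicate 10 and ground AEM replicate 1) ended this call, with differences from -0.65 to -0.44 over all 8 and an adjusted p of up to 0.0936. With all 23 arrays in the fit the adjusted p was 0.105.

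In calf muscle Ccn2 was not called in any comparison. Reloaded replicates 14, 15, 16, 18 and 33 read 8.30, 8.61, 8.31, 8.88 and 8.42, and suspension replicates 8, 9, 11, 25 and 30 read 7.20, 7.52, 7.87, 8.51 and 7.92. Suspension replicate 25 alone reached the reloaded range. Control replicates 1, 2, 19, 21 and 22 read 8.36, 8.60, 8.30, 7.83 and 8.50. Suspension minus control was -0.52 ± 0.18 (SE, adjusted p = 0.358), and reloaded minus suspension was 0.70 ± 0.18 (adjusted p = 0.13). Both rest on the suspended samples with the lowest values: without suspension replicates 8 and 9 they were -0.22 and 0.41, whereas without replicate 25 reloaded minus suspension was 0.88 and was called (adjusted p = 0.00593). Reloaded and control Ccn2, at 8.51 ± 0.25 and 8.32 ± 0.30, differed by 0.19 with an interval of -0.20 to 0.57.

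Hbegf, the EGF receptor ligand, read 8.23, 8.25, 7.86 and 8.00 in spaceflight replicates 8, 9, 10 and 11, against 7.42, 7.91, 7.08 and 7.36 in ground AEM replicates 1 to 4. Ground AEM replicate 2 fell among the flown samples. The mean rose by 0.64 ± 0.15 (SE, adjusted p = 0.0252), to 8.09 ± 0.19 in spaceflight against 7.44 ± 0.34 in ground AEM (SD, n = 4 each). Leaving out spaceflight replicate 8 or 9 or ground AEM replicate 3 or 4 ended the call (adjusted p = 0.0691 to 0.0733), while without ground AEM replicate 2 the difference was 0.80 (adjusted p = 0.00199).

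Reloaded samples held Hbegf at 8.11, 8.25, 7.75, 8.48 and 7.71 in replicates 14, 15, 16, 18 and 33. Suspension replicates 8, 9, 11, 25 and 30 read 7.01, 7.26, 7.24, 7.08 and 7.57, and control replicates 1, 2, 19, 21 and 22 read 7.21, 7.51, 7.04, 7.16 and 6.96. All 5 reloaded samples lay above all 10 others. The reloaded mean of 8.06 ± 0.33 was higher by 0.83 ± 0.14 than that of suspension (7.23 ± 0.22; SD, n = 5 each; adjusted p = 0.00232) and higher by 0.88 ± 0.14 than that of control (7.18 ± 0.21; adjusted p = 0.00194). Suspension and control differed by 0.06, with an interval of -0.23 to 0.34, and their samples were mixed in order. With any 1 of the 15 arrays left out both reloading calls stood (adjusted p up to 0.0131).

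Adamts1, the protease, showed the lowest flown values relative to ground. It read 6.53, 6.62, 6.49 and 6.16 in spaceflight replicates 8, 9, 10 and 11, against 7.43, 7.07, 7.50 and 7.35 in ground AEM replicates 1 to 4. The groups lay well apart. The mean fell to 6.45 ± 0.20 in spaceflight, against 7.34 ± 0.19 in ground AEM (SD, n = 4 each), a difference of -0.89 ± 0.11 (SE, adjusted p = 0.000625) and the 10th lowest of the 9133 genes.

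On reloading Adamts1 went in the opposite direction. Reloaded replicates 14, 15, 16, 18 and 33 read 7.72, 8.84, 7.21, 7.92 and 7.94, suspension replicates 8, 9, 11, 25 and 30 read 6.36, 6.47, 7.11, 6.85 and 6.52, and control replicates 1, 2, 19, 21 and 22 read 6.85, 6.99, 6.95, 7.38 and 7.09. Reloaded replicate 15 was the highest by far and replicate 16 the lowest, only just above suspension replicate 11. The rise over suspension was 1.27 ± 0.20 (SE, adjusted p = 0.00167), 2.40-fold, from means of 7.93 ± 0.59 in reloaded and 6.66 ± 0.31 in suspended muscle. Reloaded minus control was 0.87 ± 0.20 and was not called (adjusted p = 0.0761), although without reloaded replicate 16 it was 1.05 and was called (adjusted p = 0.00698), and it was also called with all 23 arrays in the fit (adjusted p = 0.0215). Suspension minus control was -0.39 ± 0.20 (adjusted p = 0.615), and -0.23 without suspension replicates 8 and 9.

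Tnfrsf12a, the TWEAK receptor, was the 1 gene of the set called in suspension against control. Suspension replicates 8, 9, 11, 25 and 30 read 8.39, 8.80, 8.64, 8.32 and 8.80, against 9.27, 9.51, 9.39, 9.36 and 9.48 in control replicates 1, 2, 19, 21 and 22. The control samples were close together and all above the suspended ones. The mean fell to 8.59 ± 0.22 in suspension, against 9.40 ± 0.09 in control (SD, n = 5 each), a difference of -0.81 ± 0.14 (SE, adjusted p = 0.0105) and the 5th lowest of 9133. Without suspension replicates 8 and 9 together the difference was -0.82, with an adjusted p of 0.0531. With any single calf array left out the call stood (adjusted p up to 0.036).

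Reloaded replicates 14, 15, 16, 18 and 33 held Tnfrsf12a at 10.27, 10.10, 9.37, 10.37 and 9.93, above every suspended sample. The difference from suspension was 1.42 ± 0.14 (SE, adjusted p = 4.96e-06), 2.67-fold, the 10th highest of all genes. Replicate 16 lay among the controls, and the other reloaded samples lay above every control sample. The reloaded mean of 10.01 ± 0.39 differed from control by 0.61 ± 0.14 (adjusted p = 0.0761), and by 0.76 without replicate 16 (adjusted p = 0.000806). The calf means thus ran from reloaded through control to suspension, with reloaded and control not separated by the call.

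In flight the receptor's mean hardly moved, but its spread was wide. Spaceflight replicates 8, 9, 10 and 11 read 9.39, 8.59, 9.68 and 9.28, against 9.02, 9.06, 9.24 and 9.17 in ground AEM replicates 1 to 4. Replicate 9 was below all ground samples and the other flown samples were above all of them. The difference was 0.11 ± 0.17 (SE, adjusted p = 0.772) with an interval of -0.26 to 0.49, and the SD was 0.46 in spaceflight and 0.10 in ground AEM.

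The reloaded arrays did not respond alike. Relative to the suspension mean, reloaded replicate 16 stood at 0.23 for Ccn1, 0.50 for Ccn2, 0.52 for Hbegf, 0.55 for Adamts1 and 0.78 for Tnfrsf12a. It was the lowest of its group in 3 of the 5 genes and the next lowest in the others. Replicate 18 was the highest in 4 of the 5, with 1.19 for Ccn1, 1.08 for Ccn2, 1.24 for Hbegf and 1.78 for Tnfrsf12a. Replicate 15 led in Adamts1 with 2.18. Replicate 16 had a median correlation of 0.994 with its group, where the 5 reloaded arrays ran from 0.994 to 0.995, and an interquartile range of 2.31, where the other reloaded arrays had 2.38 to 2.44. The part of this narrower range in its values was not tested.

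**Figure D3:**
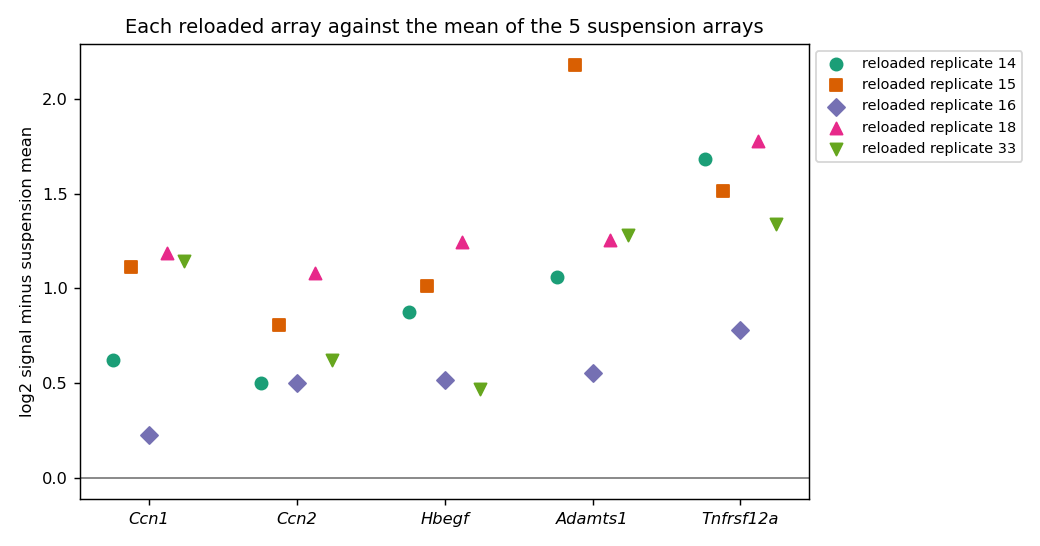
Log2 signal of each of the 5 reloaded arrays minus the mean of the 5 suspension arrays, by gene; the horizontal line at 0 is the suspension mean. All 25 points lie above 0, with replicate 16 lowest in Ccn1 (0.23), Adamts1 and Tnfrsf12a and replicate 15 highest in Adamts1 (2.18).

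The second probe sets of Ccn1, Hbegf and Tnfrsf12a read the same RNA with other oligonucleotides, so they check the probes and are not further replicates. When every probe set was fitted on its own over 14849 probe sets, 6 of the 8 were called in flight (6.36% of all probe sets), 1 in suspension against control (0.377%), 6 in reloaded against suspension (0.579%) and 4 in reloaded against control (0.337%). Ccn1 is represented by an x_at probe set, a suffix for sets whose probes may match other transcripts. Its other set, 1438133_a_at, differed by 1.01 ± 0.15 in flight (SE, limma adjusted p = 0.00156), by 1.12 ± 0.22 on reloading over suspension (adjusted p = 0.0133) and by 1.03 over control (adjusted p = 0.0435). Each of these differences was larger than that of the first set. In set 1438133_a_at the reloaded and suspended samples overlapped, with reloaded replicate 16 at 6.35 and suspension replicate 25 at 6.62.

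The Hbegf probe sets ranked flight and reloading differently. The second set, 1418349_at, read 7.43, 7.59, 7.37 and 7.19 in spaceflight replicates 8, 9, 10 and 11, against 6.60, 6.64, 6.47 and 6.46 in ground AEM replicates 1 to 4, with no overlap. Its flight difference was 0.85 ± 0.09 (SE, limma adjusted p = 0.000309). Reloaded minus suspension was only 0.39 ± 0.11 in this set (adjusted p = 0.173), where the first set gave 0.83. The samples overlapped there, with reloaded replicate 16 at 6.76 and suspension replicate 30 at 6.97. Reloaded minus control was 0.55 in this set and was called (adjusted p = 0.0251). The second Tnfrsf12a set, 1418572_x_at, stayed close to the first, with 1.43 on reloading over suspension (adjusted p = 3.67e-05) and -0.75 in suspension against control, which just missed the threshold (adjusted p = 0.0517).

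**Figure D4:**
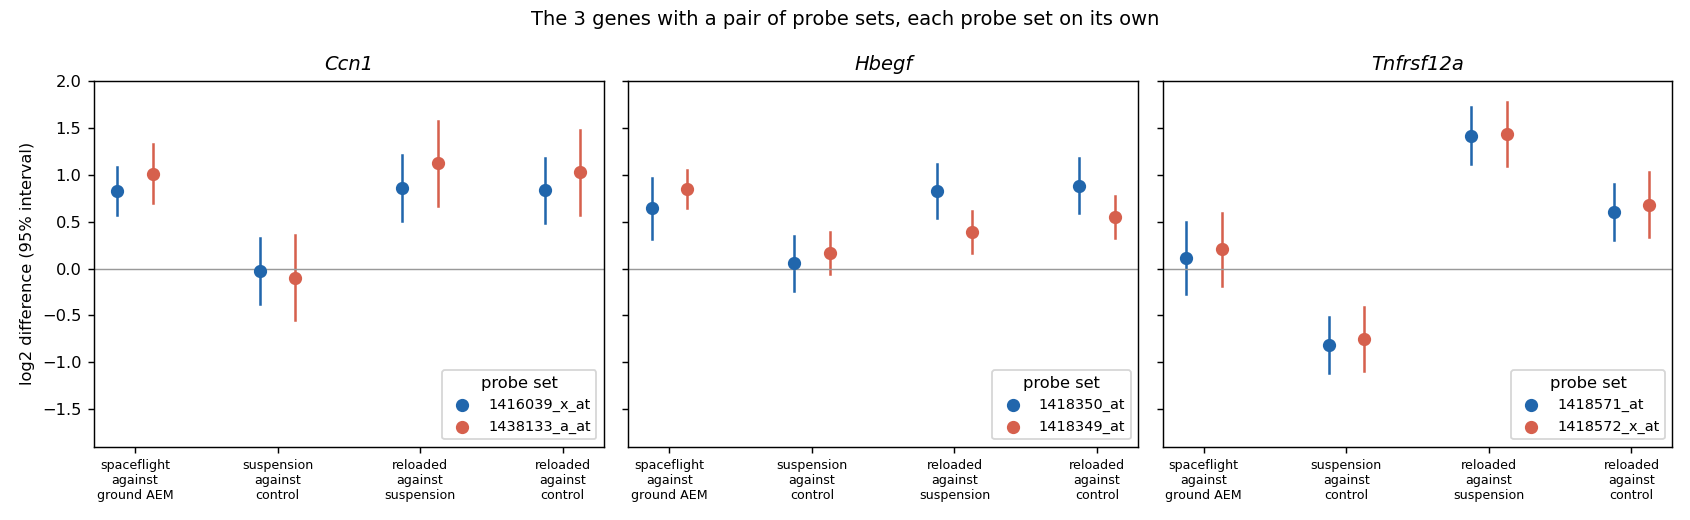
Log2 difference with its 95% interval for each probe set of Ccn1, Hbegf and Tnfrsf12a in the 4 comparisons, every probe set fitted on its own. Both sets of a gene lie on the same side of 0 throughout, and the Hbegf sets differ most on reloading over suspension (0.83 and 0.39).

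The flight effect was set against each calf effect, with every effect taken within its own experiment, over all 23 arrays. The experiments differed in the muscle sampled and in array interquartile range (2.75 to 2.91 in flight, 2.20 to 2.46 in calf samples). The part of these in a difference of effects was not tested. Adamts1 was the 1 gene of the 5 whose flight effect differed from the effect of suspension followed by reloading (reloaded minus control), by -1.76 ± 0.28 (SE, limma adjusted p = 0.0003), where 2.74% of all genes were called. It fell in flight and its reloaded mean stood above control. Ccn2 differed by -0.73 in this contrast (adjusted p = 0.163) and Tnfrsf12a by -0.49 (adjusted p = 0.353). For Ccn1 the difference of the effects was -0.01, with an interval of -0.48 to 0.47, and for Hbegf it was -0.24, with an interval of -0.69 to 0.21.

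Against suspension alone, Tnfrsf12a was the 1 gene called, with a flight effect higher by 0.92 ± 0.24 (SE, limma adjusted p = 0.0494), where 1.27% of all genes were called. It sat at the threshold: with the probe sets of each gene averaged, Tnfrsf12a was not called (0.94, adjusted p = 0.0555) and Hbegf was (0.64, adjusted p = 0.043). Leaving out 1 array ended the call in 18 of 23 cases (adjusted p from 0.00401 to 0.12 over the 23). Ccn1 had a flight effect higher by 0.85 ± 0.23 (adjusted p = 0.0637) and Hbegf by 0.58 ± 0.22 (adjusted p = 0.242). In the fit of all probe sets, 2 of the 8 were called in this contrast (1.58% of all), the first Tnfrsf12a set and Hbegf set 1418349_at (0.69, adjusted p = 0.0149). For Ccn2, whose mean was lower in flown than in ground muscle and lower in suspended than in control muscle, the effects differed by -0.03, with an interval of -0.57 to 0.51.

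Promoter windows from RefSeq, taken by symbol, are shown for Ccn1, Adamts1 and Tnfrsf12a. Each holds the 250 bases before the transcription start in assembly GRCm38.p6, on the minus strand and written 5′ to 3′. These 3 genes were called higher in reloaded than in suspended muscle. Hbegf was called higher there as well, so that rise did not select the 3. No window is shown for Hbegf or Ccn2, and the reason for leaving them out is not given here. The motif matches therefore describe the windows of these 3 genes only, not the whole set followed. Capitals mark matches to the motifs searched on both strands: CATTCC for TEAD factors, TGANTCA for AP-1, TGACGTCA for CREB-type factors, TATAAA for the TATA box, and the CArG box of SRF. No matches of different motifs overlapped.
Ccn1, chr3:145649986-145650235: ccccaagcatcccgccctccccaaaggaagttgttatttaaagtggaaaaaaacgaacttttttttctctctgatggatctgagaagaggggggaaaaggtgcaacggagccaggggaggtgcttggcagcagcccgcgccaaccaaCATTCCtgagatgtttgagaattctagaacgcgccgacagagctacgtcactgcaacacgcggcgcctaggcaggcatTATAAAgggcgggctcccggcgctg
Adamts1, chr16:85803114-85803363: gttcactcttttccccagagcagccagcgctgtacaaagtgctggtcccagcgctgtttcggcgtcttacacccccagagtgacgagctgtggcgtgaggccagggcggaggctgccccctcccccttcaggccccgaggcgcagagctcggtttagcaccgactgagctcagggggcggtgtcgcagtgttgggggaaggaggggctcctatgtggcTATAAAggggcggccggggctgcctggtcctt
Tnfrsf12a, chr17:23677450-23677699: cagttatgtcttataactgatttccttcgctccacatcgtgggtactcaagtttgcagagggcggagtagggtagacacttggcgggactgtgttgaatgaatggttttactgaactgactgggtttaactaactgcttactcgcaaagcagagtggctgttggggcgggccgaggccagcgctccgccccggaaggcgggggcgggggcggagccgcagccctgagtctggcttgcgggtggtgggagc

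The Ccn1 window holds CATTCC at positions -103 to -98 from the start and TATAAA at -25 to -20. The Adamts1 window holds TATAAA at -32 to -27, and the Tnfrsf12a window holds none of the 5 motifs. Among the 32841 windows of that length in the same table, 12.6% hold CATTCC, 12.4% TATAAA, 6.75% TGANTCA, 1.55% TGACGTCA and 1.47% the CArG box. A match describes the letters only, and a window without one says nothing about a factor, since sites farther away were not searched.

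Of 9 tested integrins and other receptors of CCN proteins, 0 were called by limma in any of the 4 comparisons, and at most 1 had an unadjusted p under 0.05. Their median difference was 0.02 in flight and 0.03 on reloading over suspension, beside -0.01 and -0.02 over all tested genes. Of the 2 other CCN family members tested, 0 were called, and 1 had an unadjusted p under 0.05 in flight. Among 10 tested ligands, receptors and shedding enzymes of the EGF family besides Hbegf, 1 rose in flight, Errfi1, a feedback inhibitor of the EGF receptor, by 0.96 ± 0.13 (SE, limma adjusted p = 0.000959), and its other probe set rose by 0.96 as well. The EGF receptor Egfr differed by -0.07 in flight in its brightest probe set, while another of its sets, 1424932_at, differed by 0.78 (adjusted p = 0.00148 over all probe sets). On reloading over suspension Egfr differed by -0.16 (adjusted p = 0.601).

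Of 12 tested ADAMTS proteases, substrates and inhibitors besides Adamts1, 2 rose and 1 fell in flight. The proteases Adamts15 and Adamts5 rose, by 0.73 ± 0.19 (SE, limma adjusted p = 0.0445) and by 0.39 (adjusted p = 0.0227), where Adamts1 fell. Adamts15 was read near the level filter. Its mean was above that filter in spaceflight (6.16) and below it in ground AEM (5.43) and in the calf groups (5.59 to 5.71). The flown and ground samples overlapped for Adamts15 and did not for Adamts5. The inhibitor Timp4 had a difference of -0.52 (adjusted p = 0.0104), and 0 of the 12 were called in any calf comparison, with 1 to 2 at an unadjusted p under 0.05. In TWEAK signalling 1 of 10 tested genes besides the receptor rose in flight, Nfkbia, the inhibitor of NF-kappa-B, by 0.87 (adjusted p = 0.00134). Nfkbia sets 1448306_at and 1449731_s_at rose by 1.26 and 1.11, but set 1420089_at differed by 0.20 (adjusted p = 0.503 over all probe sets). In the calf comparisons 0 of the 10 genes were called, and 0 had an unadjusted p under 0.05. The ligand Tnfsf12 was not analysed here.

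The YAP, TAZ and TEAD list had 14 tested genes besides these. On reloading 1 was called, Ankrd1, a stretch-induced ankyrin repeat protein of the sarcomere, which rose by 2.04 ± 0.22 over suspension (SE, limma adjusted p = 1.19e-05) and by 1.44 over control (adjusted p = 0.00194). In flight Amotl2 rose by 0.46 and Mob1a, an activator of the LATS kinases, differed by -0.49 and was called lower, while Ankrd1 differed by 0.51 (adjusted p = 0.387). Over all probe sets, Mob1a set 1423782_at differed by -0.54 (adjusted p = 0.0162) and set 1424484_at by -0.36 (adjusted p = 0.112, not called). Of 15 tested genes of the SRF and MRTF list, 1 was called on reloading over suspension, the tropomyosin Tpm4, which rose (0.65 ± 0.13, adjusted p = 0.0195). The reloaded and suspended samples overlapped for Tpm4. In the SRF and MRTF list 11 of 15 differences were positive and 8 had an unadjusted p under 0.05, counts whose shares over all genes are not given here. Their median was 0.20, beside -0.02 over all tested genes. Tpm4 fell in flight by 0.53 (adjusted p = 0.00653) and the coactivator Mrtfa rose by 0.45 (adjusted p = 0.0245), while Srf differed by 0.01 in flight and by -0.01 on reloading.

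**Figure D5:**
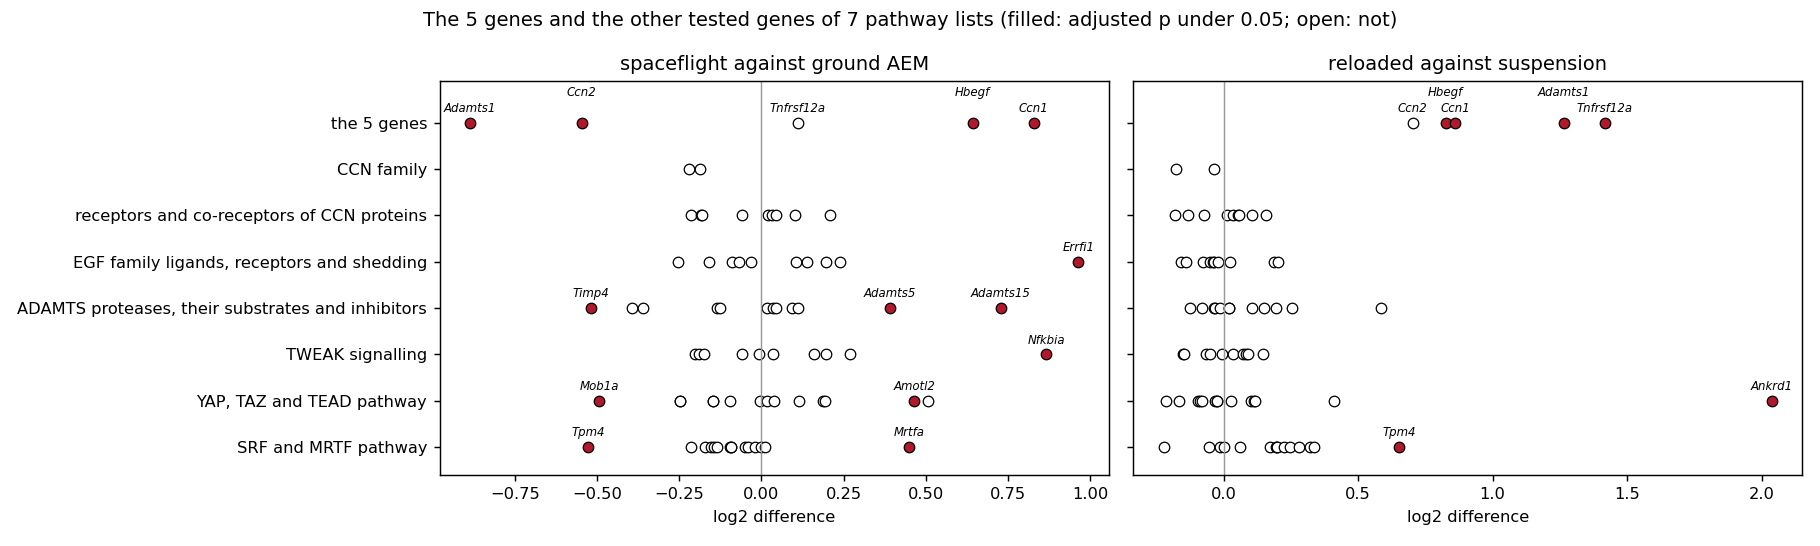
Log2 differences of the 5 genes (top row) and of the other tested genes of 7 pathway lists in spaceflight against ground AEM (left) and reloaded against suspension (right); filled points have an adjusted p under 0.05. On reloading the lists hold 2 filled points, Ankrd1 (2.04) and Tpm4 (0.65), while 4 of the 5 genes are filled.

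Likeness of pattern was measured as the root mean square difference of log2 values over the 23 arrays, after each experiment was centred on its own mean. The 3 closest of all tested genes were taken. Directions that these genes share with a member follow largely from this choice and are given as description only. For Ccn1, whose own root mean square deviation was 0.48, these were the immediate-early gene Ier5 (0.21), Hbegf (0.27) and the AP-1 subunit Jun (0.29). Ccn1, Ier5 (0.28) and Jun (0.28) were also the closest to Hbegf. Adamts1 was closest to Slc38a2 (0.33), an amino acid transporter, followed by Tpm4 (0.35) and the calcineurin regulator Rcan1 (0.38). In each of these 3 genes spaceflight minus ground AEM was negative (-0.60, -0.53 and -0.38) and reloaded minus suspension positive (1.49, 0.65 and 1.75), as in Adamts1. Tnfrsf12a was closest to Flnc (0.23), a filamin of the muscle Z-disc, Lmcd1 (0.25) and Csrp3 (0.25), a muscle LIM protein. Their differences were -0.44, -0.57 and -0.76 in suspension against control and 0.96, 0.93 and 1.60 in reloaded against suspension. Ccn2 was closest to matrix genes and a tropomyosin, Thbs4 (0.26), Lamb2 (0.27) and Tpm4 (0.27).

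In bulk muscle, fewer cells of a type and less RNA per cell cannot be told apart, and markers of some other cell types moved alongside these genes. All 9 skeletal muscle fibre markers were above the filter, as the label of the tissue has it, with 0 called in any comparison and 1 to 3 at an unadjusted p under 0.05. Of 5 tested tendon markers, 0 were called in flight with all 5 differences negative (median -0.51), 1 fell in suspension (Chad, with all 5 negative and a median of -0.38), and 1 rose on reloading over suspension (Thbs4, the gene most like Ccn2, with all 5 positive and a median of 0.37). The summed linear signal of the 6 tendon markers on the array was 1363 to 1952 in spaceflight and 1708 to 3670 in ground AEM. It was 3718 to 4430 in reloaded, 2288 to 4103 in suspended and 3643 to 4296 in control muscle. Ccn2 and Adamts1 differed in the same directions in all 3 comparisons, and Tnfrsf12a in both calf comparisons. The part of tendon tissue in their values was not tested.

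Of 3 Schwann cell markers, 1 rose in suspension against control, Mbp, with all 3 differences positive, a median of 1.10 and a summed signal of 2813 to 4658 in suspended and 1281 to 1679 in control muscle. In reloaded against suspension 0 were called, but all 3 differences were negative (median -0.56), each with an unadjusted p under 0.05. The part of these cells in the calf values of Tnfrsf12a and of the genes that rose on reloading was not tested.

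Of 6 fibroblast markers, 2 fell in flight, Col1a1 and Col3a1, and 0 were called in the calf comparisons. All 6 differences were negative in suspension against control (median -0.28, 4 at an unadjusted p under 0.05). In reloaded against suspension all 6 were positive (median 0.21, 1 at an unadjusted p under 0.05). The summed signal of the fibroblast markers was 4103 to 4777 in spaceflight and 4267 to 6169 in ground AEM. It was 4608 to 5968 in reloaded, 3631 to 5697 in suspended and 5046 to 6701 in control muscle. Of 6 endothelial markers, 1 fell in flight, Kdr, and their summed signal was 871 to 896 in spaceflight and 928 to 954 in ground AEM, without overlap. On reloading over suspension 0 of the 6 were called and 2 had an unadjusted p under 0.05, at 742 to 846 in reloaded and 751 to 854 in suspended muscle. All 5 measured adipocyte markers rose in flight, at a summed signal of 1488 to 2018 in spaceflight and 668 to 863 in ground AEM. In the calf comparisons 0 of them were called, with all 5 differences positive in suspension against control (median 0.53, 4 at an unadjusted p under 0.05) and all 5 negative in reloaded against suspension (median -0.25, 3 at an unadjusted p under 0.05). The 6 smooth muscle and pericyte markers and the 7 macrophage markers had 0 called in any of the 4 comparisons of groups, with at most 1 each at an unadjusted p under 0.05. The same held for 4 neutrophil and 4 skin markers, while the erythroid marker Alas2 fell in flight. The part of these cells in the values of the 5 genes was not tested.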

How the data were processed

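Each of 23 samples was hybridised as biotin-labelled cRNA to 1 Affymetrix array, after Trizol extraction and RNeasy columns, per the labels' protocols. The deposited values are log2 signals per probe set, from 2.49 to 14.2. RMA and MAS5 are named in the submitters' processing notes; which of them made the values, and over which arrays, is not given in the sources used here, and neither are batches or a genome build. No further normalization was applied. Of 22690 probe sets, 64 controls were left out, and symbols came from the platform annotation (20380 with 1 symbol, 691 with several, 1555 unnamed). A gene was read by its probe set of highest mean and tested where its log2 signal exceeded 5.83, the 40th percentile, on at least 4 arrays (9133 of 12393 genes).

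Groups were compared with limma 3.58.1 in R 4.3.3 (lmFit and eBayes, two-sided), with the 8 flight arrays and the 15 calf arrays fitted apart and the differences of effects over all 23. Genes with an adjusted p under 0.05 (Benjamini-Hochberg, over all tested genes) count as called. The code was tested on simulated arrays. The number of arrays limits the precision: the median standard error of a difference was 0.09 in both experiments. The 5 genes and all lists were chosen with earlier results of these data known. Named besides the 5 genes were up to 3 called genes of largest difference per pathway list and comparison, Ankrd1, Tnfsf12, Egfr and Srf. The 3 genes of most similar pattern for each of the 5 and the called marker genes were also named. Probe sets of Egfr, Nfkbia and Mob1a and the called markers were named after their values were seen. The alternatives were other filters on low signals, averaging the probe sets of 1 gene, each probe set on its own, quantile or median scaling, trend with robust estimation, array weights, stricter thresholds, other sets of arrays and leaving out each array.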

Additional observations from a re-analysis of the deposited data

Results flagged for a closer look

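In 2 of the 5 genes the flight effect was called different from a calf effect in the test of the difference itself. For Tnfrsf12a, the flight effect was higher than the suspension effect by 0.92 on the log2 scale (limma over 23 arrays, adjusted p = 0.0494). In that contrast 1.27% of all genes were called. Leaving out 1 array ended the Tnfrsf12a call in 18 of 23 cases, and its second probe set was not called (adjusted p = 0.0638). For Adamts1, the flight effect differed from the effect of suspension followed by reloading by -1.76 (adjusted p = 0.0003). There 2.74% of all genes were called, and the Adamts1 call stood with any 1 array left out (adjusted p up to 0.0014). In the 40 combinations of 8 probe sets and 5 groups, 0 arrays stood out from their group by Dixon's test. With 4 or 5 arrays in a group this test finds only extreme gaps, so it does not show that no single array mattered.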

How the results depend on the processing

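At an adjusted p under 0.01 the counts of the 5 genes called were 2 in flight (4 at 0.05), 0 in suspension against control (1) and 1 in reloaded against control (2). Of all 9133 genes, 181 were called at 0.01 in flight (515 at 0.05) and 9 in suspension against control (34). Reloaded against suspension kept 4 called genes under all 13 alternatives, with 38 of all 9133 genes called at 0.01 (53 at 0.05). Reloaded against control had 1 with trend and robust estimation and 4 with array weights. Leaving out suspension replicates 8 and 9 together gave 0 in suspension against control, where 7 of all 9133 genes were called. The difference of flight and suspension effects had 0 called without a filter, with quantile normalization, with trend and robust estimation, at 0.01 and without those 2 replicates, and 2 with array weights. Averaging probe sets kept the count at 1 but with Hbegf called in place of Tnfrsf12a. Of the 8 probe sets, 2 were called in this contrast, and 1 without a filter. With the flight groups exchanged, as the description fields have them, 3 genes were called in the difference from the suspension effect (Ccn1 -0.80, Ccn2 1.06, Adamts1 1.28, with Hbegf at -0.70) and 2 in the difference from the reloaded effect (Ccn1 -1.66 and Hbegf -1.52), where Ccn2 at 0.36 and Adamts1 at 0.012 were not called. With the mean of its probe sets, Hbegf differed by 0.030 between the flight and reloaded effects. Where no count over all genes stands here, the counts of the 5 genes cannot be set against the overall rate of calls. The cause of the changes between settings was not tested.

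With 1 array left out, the counts lay between 2 and 4 in flight, at 1 in suspension against control, between 4 and 5 in reloaded against suspension, between 1 and 4 in reloaded against control, between 0 and 2 in the difference from the suspension effect and at 1 in that from the reloaded effect. Over all genes the counts were, in the same order, 283 to 491, 15 to 47, 39 to 63, 20 to 43, 78 to 157 and 181 to 309. Small differences changed sign in this way: Tnfrsf12a in flight (-0.038 to 0.33), Ccn1 (-0.10 to 0.079) and Hbegf (-0.028 to 0.14) in suspension against control, Ccn2 in the flight minus suspension effect (-0.18 to 0.15) and Ccn1 in the flight minus reloaded effect (-0.16 to 0.089). No paired analysis was possible because the groups compared within an experiment share no replicate numbers.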
